A study of Homo sapiens with 6 samples.

Results

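The early B-cell factor (EBF) genes EBF1, EBF2, EBF3 and EBF4 were followed across 6 clonal lines of HEK293, an established human embryonic kidney cell line. The members were taken by gene symbol, which gave 4 of the 58395 genes in the count tables, and all 4 passed the filter on low counts that left 17261 genes for testing. GST lines 2, 8 and 9 expressed glutathione S-transferase, the control protein, and NOCT lines 4, 11 and 12 expressed nocturnin, a protein of the circadian clock's output that acts on NADP and NADPH, without its residues 2 to 15. Both proteins carried the tag written 3F, and no line without a construct was included. Each line is a single clone and gave 1 strand-specific RNA-seq library, depleted of ribosomal RNA, after 3 days of growth. The promoter of the constructs is not given in the sources used here. The family was chosen by the measured levels of EBF3 in NOCT against GST lines, so the member values below are a description with no test.

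EBF proteins, also named COE or Olf/EBF factors, are transcription factors that bind DNA as dimers through an amino-terminal domain held by an unusual zinc-binding motif, followed by an IPT/TIG domain and a helix-loop-helix dimer domain. EBF1 specifies the B-cell lineage and acts in adipocyte differentiation, EBF2 acts in brown fat and in neurons, and EBF3 acts in neuronal development and has been described as a brake on cell growth. EBF4 is the most divergent and least studied member.

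The zinc-binding motif is shown because it is the hallmark of the family's DNA-binding domain, and because likeness between copies bears on whether reads could be assigned to the wrong member. The stretch runs over 42 coding bases of the GENCODE transcript of each gene (GRCh38, read in the sense of the gene), from base 469 to 510 of the coding sequence in EBF1 and EBF3 and from 472 to 513 in EBF4. Capitals mark the codons of the histidine and the 3 cysteines that hold the zinc ion.
EBF1: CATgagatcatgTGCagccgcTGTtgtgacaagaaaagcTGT
EBF3: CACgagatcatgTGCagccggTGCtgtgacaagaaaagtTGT
EBF4: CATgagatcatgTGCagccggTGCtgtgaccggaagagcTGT
The EBF1 stretch differed from that of EBF3 at 4 bases and the EBF4 stretch at 5, while EBF2, whose sequence is not printed, differed from EBF3 at 9.

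The longest exact run that any pair of members shared in these coding sequences lay inside this motif, between EBF3 and EBF4, and was 27 bases long: gagatcatgtgcagccggtgctgtgac. EBF1 and EBF4 shared a run of 25 bases elsewhere in the coding sequence, ggaaatccaacttcttccacttcgt, and EBF1 and EBF3 one of 24 bases, gagccgctgggcagcggcatgaac. Across the whole alignments, coding identity was highest between EBF1 and EBF3 at 77.95% and lowest between EBF2 and EBF4 at 69.31%. Every shared run was shorter than the 50-base reads, and 0 of the 50-base words in the transcript of any member occurred in another member. Of the 4716 words of EBF3, 241 (5.11%) also lay in AL354950.2, an antisense gene inside EBF3 that had 0 counts in every line. EBF1 (5357 words), EBF2 (5442) and EBF4 (3034) shared 0 words with any other gene.

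The genes lie on different chromosomes of GRCh38. EBF1 (ENSG00000164330) occupies chr5:158695916-159099761 on the minus strand, and its transcript ENST00000313708.10 has 16 exons. EBF2 (ENSG00000221818) lies at chr8:25841730-26045397 on the minus strand, with 16 exons in ENST00000520164.5. EBF3 (ENSG00000108001) lies near the end of the long arm at chr10:129835283-129963841 on the minus strand, with 16 exons in ENST00000355311.9. EBF4 (ENSG00000088881) lies at chr20:2692878-2760108 on the plus strand, with 17 exons in ENST00000609451.5.

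The libraries held 19729745 to 24422406 gene counts, and a GST or NOCT construct was read in the lines labelled with it (46 to 88 counts of the GST construct in GST lines against 0 or 1 in NOCT lines, and 46 to 82 of the NOCT construct in NOCT lines against 3 to 7 in GST lines). NOCT line 12 stood apart from the other NOCT lines: over genes, which are no independent replicates, its log2 levels had a correlation of 0.971 with line 4 and 0.976 with line 11, against 0.989 between lines 4 and 11 and 0.977 to 0.981 with the GST lines. All 8 HEK293 markers had at least 10 counts in some line, and their summed level was 1040 to 1398 CPM (counts relative to the TMM-scaled library size) in GST lines and 1230 to 2053 CPM in NOCT lines. VIM was the largest part of that sum, with 678 to 946 CPM in GST lines and 779 to 1425 CPM in NOCT lines. Markers of blood, endothelium, fibroblasts and liver summed to 0.147 to 0.371 CPM in GST lines and 0.150 to 0.510 CPM in NOCT lines, and COL1A2, HBB and CD3E had 0 counts throughout. Of the HEK293 markers, NEFM had 4 to 9 counts in 5 lines and 137 in NOCT line 12, the line in which EBF2 was highest. NEFM lies within 1 Mb of EBF2 on chromosome 8. In bulk RNA, fewer cells that express a gene and less RNA per cell cannot be told apart.

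EBF3 was the member that separated the groups. Its counts were 542, 568 and 568 in GST lines 2, 8 and 9 and 252, 281 and 279 in NOCT lines 4, 11 and 12, which is 28.6, 26.3 and 27.9 CPM against 9.89, 12.6 and 14.0 CPM. Every NOCT line lay well below every GST line, with line 4 the lowest at 35.8% of the GST mean. The means were 27.6 ± 1.14 CPM in GST lines and 12.2 ± 2.08 CPM in NOCT lines (SD, 3 lines a group), a log2 fold change of -1.18 with a standard error of 0.15 in edgeR's quasi-likelihood fit, or 2.27-fold lower. In the authors' deposited table the shrunken log2 fold change of EBF3 was -1.04 with a standard error of 0.16. EBF3 was also the steadiest member within the GST lines, with a coefficient of variation of 4.14%, against 17.1% within the NOCT lines.

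EBF2 varied most within the NOCT lines. Its counts were 164, 234 and 238 counts in GST lines 2, 8 and 9 and 106, 118 and 273 in NOCT lines 4, 11 and 12, or 8.65, 10.9 and 11.7 CPM against 4.16, 5.29 and 13.7 CPM. NOCT lines 4 and 11 lay below all GST lines, whereas NOCT line 12 lay above them, so the groups overlapped. The means were 10.4 ± 1.57 and 7.71 ± 5.21 CPM (SD, 3 lines a group), a log2 fold change of -0.44 with a standard error of 0.41. The log2 fold change of EBF2 was -1.14 without NOCT line 12, -0.23 without NOCT line 11 and -0.14 without NOCT line 4, so its size depended on which NOCT lines were kept.

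EBF1 was the member with the fewest reads. Its counts were 71, 116 and 81 in GST lines 2, 8 and 9 and 39, 84 and 67 in NOCT lines 4, 11 and 12, or 3.74, 5.38 and 3.98 CPM against 1.53, 3.76 and 3.36 CPM. NOCT line 4 was the lowest of the 6 lines, while NOCT line 11 was level with GST line 2, so the groups overlapped. The means were 4.37 ± 0.89 and 2.88 ± 1.19 CPM (SD, 3 lines a group), a log2 fold change of -0.60 with a standard error of 0.35, which became -0.30 without NOCT line 4.

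EBF4 differed least between the groups. Its counts were 320, 299 and 312 counts in GST lines 2, 8 and 9 and 377, 388 and 210 in NOCT lines 4, 11 and 12, or 16.9, 13.9 and 15.3 CPM against 14.8, 17.4 and 10.5 CPM. NOCT line 11 was the highest of all lines and NOCT line 12 the lowest, with the GST lines between them. The means were 15.4 ± 1.5 and 14.2 ± 3.46 CPM (SD, 3 lines a group), a log2 fold change of -0.11 with a standard error of 0.20, and the sign changed, to 0.06 without NOCT line 12 and to 0.04 with libraries scaled by spike-in totals. In the authors' deposited table the shrunken log2 fold changes were -0.38 for EBF1, -0.27 for EBF2 and -0.09 for EBF4.

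Line 12 thus held the highest EBF2 and the lowest EBF4 of the 6 lines, and line 4 the lowest EBF1, EBF2 and EBF3. Over the 6 lines, with 3 lines of each group in every point set and the depth of each library shared by all genes, the Pearson correlation of log2(CPM + 0.5) was 0.74 between EBF1 and EBF3, 0.67 between EBF1 and EBF2 and 0.64 between EBF2 and EBF3. EBF4 ran apart from the rest, at 0.19 with EBF3, 0.02 with EBF1 and -0.57 with EBF2.

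An adjusted p under 0.05 in edgeR was reached by 0 of the 4 members, where 0.0579% of all genes tested passed (0.0348% with NOCT lower and 0.0232% with NOCT higher). In DESeq2 1 member, EBF3, passed, where 3.41% of all genes passed in either direction and 1.59% with NOCT lower, and in the authors' deposited table the same 1 member passed, where 2.87% of genes did. Groups that do not overlap, with the NOCT lines lower, were found for 9.54% of all genes, and EBF3 was the single member among them. These counts describe the contrast that chose the family.

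**Figure D1:**
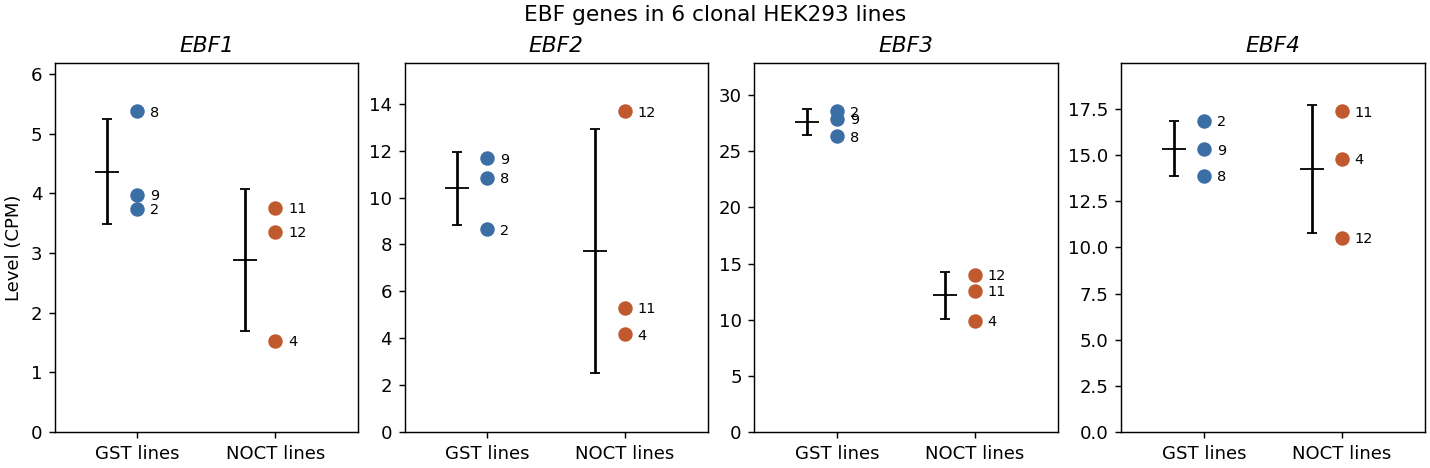
Level of each EBF gene in CPM (vertical axis, from 0, with its own range in each panel) for 3 GST lines (blue) and 3 NOCT lines (orange), with line numbers beside the points; black bars give the mean and SD of each group. EBF3 in NOCT lines lies between 9.89 and 14.0 CPM, below the 26.3 to 28.6 CPM of GST lines, while the groups overlap for EBF1, EBF2 and EBF4.

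Levels of different genes were compared per length, in the TPM values that the authors deposited, which divide by gene length and by the library's total. In GST lines EBF3 was the most abundant member at 16.7 ± 0.10 TPM, followed by EBF4 at 11.5 ± 0.67, EBF2 at 4.11 ± 0.72 and EBF1 at 1.99 ± 0.48 TPM (SD, n = 3). That order held in each GST line, and no neighbours in it overlapped across the 3 lines. In NOCT lines the means were 7.76 ± 1.01 TPM for EBF3, 11.4 ± 3.04 for EBF4, 3.17 ± 2.01 for EBF2 and 1.37 ± 0.54 for EBF1 (SD, n = 3).

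EBF4 took the top place in NOCT lines 4 and 11, where EBF3 had 6.63 and 8.08 TPM and EBF4 12.3 and 13.9 TPM. In NOCT line 12, EBF3 (8.57 TPM) and EBF4 (8.02 TPM) were nearly level, with EBF3 above. The ratio of EBF3 to EBF4 was 1.36, 1.53 and 1.46 in GST lines 2, 8 and 9 and 0.537, 0.582 and 1.07 in NOCT lines 4, 11 and 12. EBF2 and then EBF1 followed below them in every line, and over the NOCT lines their ranges nearly met (1.82 to 5.48 TPM for EBF2 and 0.768 to 1.81 TPM for EBF1), while those of EBF3 and EBF4 overlapped.

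The summed EBF level was 33.7, 34.5 and 34.6 TPM in GST lines 2, 8 and 9 and 21.6, 26.0 and 23.6 TPM in NOCT lines 4, 11 and 12. The NOCT lines were thus all below the GST lines, at a mean of 23.7 ± 2.22 TPM against 34.3 ± 0.47 TPM (SD, 3 lines a group). EBF3 held 8.90 of the 10.6 TPM between the means, or 84.4%. Without EBF3 the sum was 17.1 to 17.9 TPM in GST lines and 14.9 to 17.9 TPM in NOCT lines, and the groups overlapped.

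EBF3 made up 48.6 ± 0.57% of the family's transcripts in GST lines against 32.7 ± 3.10% in NOCT lines (SD, 3 lines a group). EBF4 made up 33.6 ± 2.36% and 48.2 ± 12.5%, with NOCT line 12, at 34.0%, inside the GST range. Among the 18016 genes with a mean above 1 TPM, 65.5% lay below EBF3 in GST lines and 45.1% in NOCT lines. For EBF4 these shares were 55.5% and 53.8%, for EBF2 31.8% and 25.0%, and for EBF1 16.2% and 6.71%. With means of 1.99 TPM in GST and 1.37 TPM in NOCT lines, EBF1 lay near the cut-off of 1 TPM. It therefore ranked low among these genes.

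**Figure D2:**
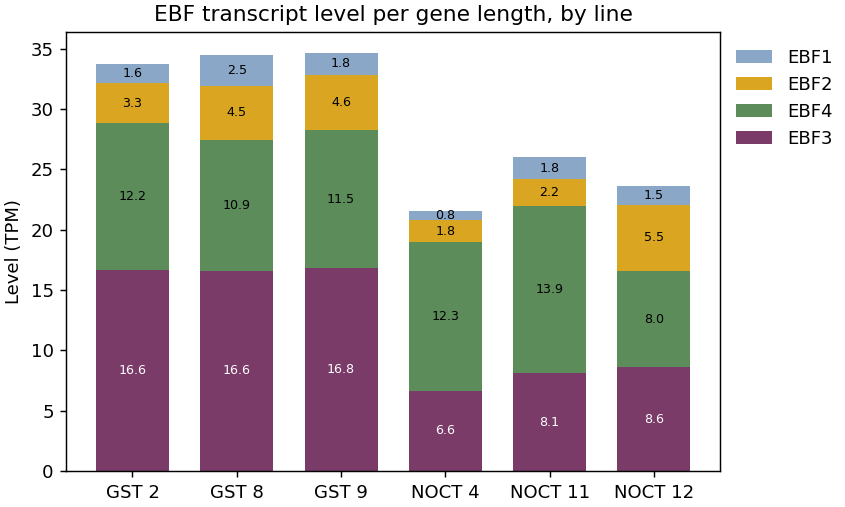
TPM of the 4 EBF genes stacked for each line (vertical axis from 0, values printed in the bars). GST lines reach 33.7 to 34.6 TPM and NOCT lines 21.6 to 26.0 TPM, and the EBF3 segment is 16.6 to 16.8 TPM in GST lines and 6.63 to 8.57 TPM in NOCT lines.

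The levels of the genes beside each member were examined in the same lines, to set each EBF gene against its stretch of chromosome. For each member, the median deviation of up to 50 expressed neighbours on each side from their own mean over the 6 lines was taken (69 neighbours of EBF3, which lies near the chromosome end, 75 of EBF4, and 100 each of EBF1 and EBF2). The neighbours of EBF3 differed by -0.07 (log2) between NOCT and GST lines, and EBF3 itself by -1.16 on the same scale, so EBF3 minus its neighbours was -1.10. The neighbours of EBF1 differed by 0.00033 and those of EBF2 by 0.0023 on the log2 scale, against -0.58 for each of the 2 genes.

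EBF4 lay in a stretch of chromosome 20 where neighbours were higher in some NOCT lines. The median deviation of its neighbours was -0.14, -0.12 and -0.10 in GST lines 2, 8 and 9, and 0.26, 0.23 and -0.13 in NOCT lines 4, 11 and 12. NOCT lines 4 and 11 were thus above, and NOCT line 12 level with, the GST lines. The difference between the groups was 0.24 for the neighbours and -0.13 for EBF4, so that EBF4 minus its neighbours was -0.37. The part of this regional shift in the level of EBF4 was not tested.

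**Figure D3:**
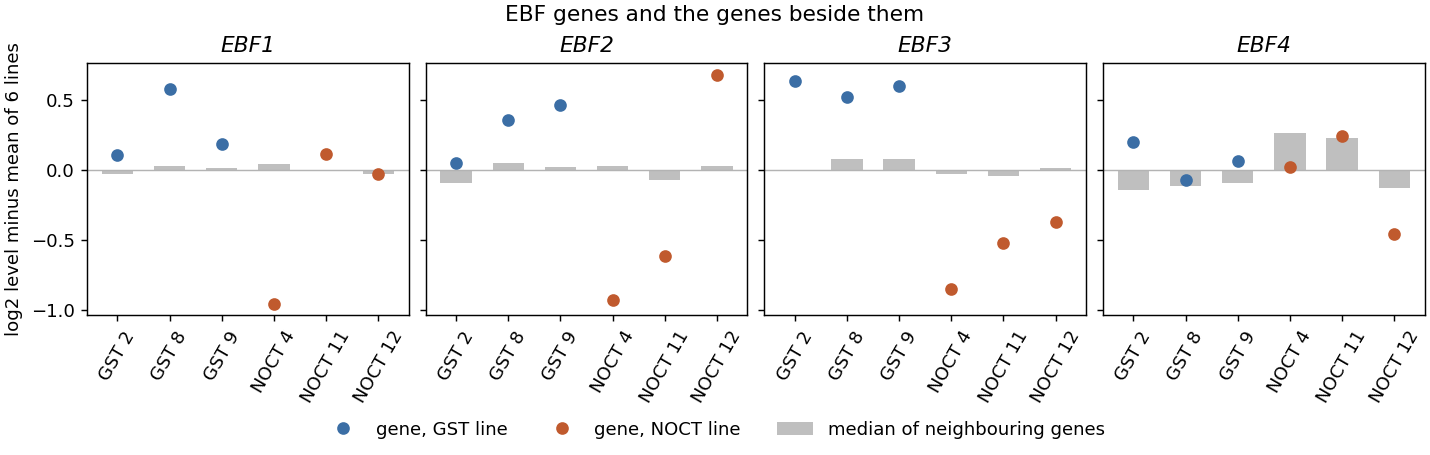
Deviation of each EBF gene (points, blue for GST and orange for NOCT lines) and of the median of its neighbouring genes (grey bars) from the mean of the 6 lines, on the log2 scale of the vertical axis, by line. EBF3 is 0.52 to 0.63 above its mean in GST lines and at -0.85 to -0.37 in NOCT lines while its neighbours stay within 0.08, and the neighbours of EBF4 are raised in NOCT lines 4 and 11.

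Within 1 Mb of the members, 0 of the tested neighbours passed an adjusted p of 0.05 in edgeR or in DESeq2. Over all genes 0.0579% passed in edgeR and 3.41% in DESeq2, so a count of 0 says little about these regions. Around EBF3 the annotation lists 19 genes, of which 3 were tested. The nearest of them, C10orf143, lies 56.2 kb upstream and had 6 to 17 counts in a line (log2 fold change -0.20, edgeR adjusted p 0.887). MGMT, the DNA repair protein that removes methyl groups from guanine, ends 67.3 kb downstream of EBF3 and had 3.37 ± 1.35 CPM in GST lines and 2.44 ± 0.44 CPM in NOCT lines (SD, 3 lines a group; log2 fold change -0.47, edgeR adjusted p 0.574). GLRX3, a monothiol glutaredoxin that handles iron-sulphur clusters, starts 173 kb upstream and had 76.0 ± 7.46 and 80.5 ± 8.45 CPM (log2 fold change 0.08, edgeR adjusted p 0.783). The groups overlapped for all 3 genes, and none had a fold change of the size of that of EBF3.

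Around EBF1, 9 of 41 genes were tested, with 0 at an unadjusted p under 0.05 in edgeR, where 13.9% of all genes tested had such a p. The nearest, RNF145, a ubiquitin ligase of the endoplasmic reticulum, had 50.1 ± 2.72 CPM in GST lines and 67.8 ± 19.8 CPM in NOCT lines (SD, 3 lines a group; log2 fold change 0.44, edgeR adjusted p 0.389), the opposite sign to EBF1. Around EBF2, 12 of 34 genes were tested and 3 had an unadjusted p under 0.05 (again 13.9% over all genes), among them BNIP3L, a mitophagy receptor, with 50.4 ± 3.03 and 62.6 ± 5.91 CPM (SD, 3 lines a group; log2 fold change 0.31, edgeR adjusted p 0.253). The nearest tested gene to EBF2, PPP2R2A, a regulatory subunit of protein phosphatase 2A, had a log2 fold change of -0.19. NEFM, 922.6 kb downstream of EBF2, did not pass the filter on low counts and had its 137 counts in NOCT line 12, while NEFL, the tested gene beside it, stood at -0.10 (edgeR adjusted p 0.843).

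Around EBF4, 23 of 61 genes were tested, 6 had an unadjusted p under 0.05 (13.9% over all genes), and 20 of the 23 had a positive fold change, as did 50.7% of all genes tested. Their median was 0.23 on the log2 scale, against 0.0046 over all genes. IDH3B, a subunit of the mitochondrial isocitrate dehydrogenase, stood at 0.30 (edgeR adjusted p 0.353), the ribosome assembly factor NOP56 at 0.18 (0.452), the receptor phosphatase PTPRA at 0.38 (0.258) and PCED1A at 0.31 (0.320). CPXM1, a carboxypeptidase-like protein whose gene ends 34.0 kb downstream of EBF4, was expressed at 0.674 ± 0.20 CPM in GST lines and 2.49 ± 2.00 CPM in NOCT lines (SD, 3 lines a group; log2 fold change 1.89, edgeR adjusted p 0.267). Without NOCT line 12, 4 neighbours passed in edgeR, namely RNF145 beside EBF1 and CPXM1, PTPRA and ATRN beside EBF4, each of them higher in the NOCT lines. In that refit 970 genes, or 5.42% of all tested, passed.

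Genes known to work with EBF factors, in lists chosen with results of these data known, were read from the same fit, with p-values adjusted over all genes tested. Of 17 partners, antagonists and cofactors, all were tested and 0 passed in edgeR, while in DESeq2 2 were higher and 2 lower (over all genes 1.82% passed as higher and 1.59% as lower). At an unadjusted p under 0.05 in edgeR, 4 were higher and 5 lower, where 13.9% of all genes had such a p. The median log2 fold change of the list was -0.20, against 0.0046 over all genes tested.

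ZNF521, a zinc finger protein that binds EBF1 and restrains it, had 37.7, 42.2 and 43.2 CPM in GST lines 2, 8 and 9 and 14.1, 24.6 and 23.9 CPM in NOCT lines 4, 11 and 12. All NOCT lines lay below the GST lines, with a log2 fold change of -0.98 (standard error 0.21, edgeR adjusted p 0.138, DESeq2 adjusted p 0.0011). Its paralogue ZNF423, also known as OAZ or EBFAZ, had 4.66 ± 0.81 and 3.83 ± 0.36 CPM (SD, 3 lines a group; log2 fold change -0.28, edgeR adjusted p 0.60).

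The ID proteins, inhibitors of the E-proteins that act beside EBF1 in lymphoid cells, had negative fold changes in all 4 cases. ID3 had 29.8, 39.1 and 45.2 CPM in GST lines 2, 8 and 9 and 9.54, 9.27 and 21.5 CPM in NOCT lines 4, 11 and 12, and the groups did not overlap (log2 fold change -1.51, edgeR adjusted p 0.155, DESeq2 adjusted p 0.00028). ID1 stood at -0.91 (edgeR adjusted p 0.262) and ID4 at -0.20 (0.551). ID2 had 139, 85.4 and 112 CPM in GST lines 2, 8 and 9 and 21.3, 34.4 and 92.5 CPM in NOCT lines 4, 11 and 12, with line 12 again inside the GST range (log2 fold change -1.18, edgeR adjusted p 0.323). Of the E-proteins, TCF3 stood at -0.32 (edgeR adjusted p 0.283), TCF4 at -0.38 (0.431) and TCF12 at -0.01 (0.988).

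RUNX1, which acts with EBF1 on early B-lineage genes, had 21.9, 24.8 and 21.9 CPM in GST lines 2, 8 and 9 and 46.6, 45.7 and 28.5 CPM in NOCT lines 4, 11 and 12. All NOCT lines were higher, line 12 by the least (log2 fold change 0.82, edgeR adjusted p 0.162, DESeq2 adjusted p 0.0071). EP300, the acetyltransferase coactivator, had 247 ± 9.16 CPM in GST lines and 329 ± 6.26 CPM in NOCT lines (SD, 3 lines a group; log2 fold change 0.42, edgeR adjusted p 0.120, DESeq2 adjusted p 0.0021). With the level of its neighbours removed, the log2 fold change of EP300 was 0.17 (edgeR adjusted p 0.321). CNOT3, a subunit of the deadenylase complex reported to bind EBF1, stood at 0.29 (edgeR adjusted p 0.229), and the chromatin remodelling subunits SMARCB1 and SMARCA4 at 0.30 (0.240) and -0.05 (0.802).

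The other transcription factors with an IPT/TIG domain form a further list. Of 14 NFAT, NF-kappa-B, RBPJ and CAMTA genes 13 were tested, and the median log2 fold change was 0.01. In edgeR and in DESeq2 0 of them passed, where 0.0579% and 3.41% of all genes did. An unadjusted p under 0.05 in edgeR was reached by 0, where 13.9% of all genes had such a p. With 13 genes, counts of 0 say little about this list. NFATC3 had the smallest p of this list (log2 fold change 0.26, edgeR adjusted p 0.377), followed by NFATC2 (0.98, adjusted p 0.393), whose counts were 88, 44 and 41 in GST lines 2, 8 and 9 and 204, 138 and 56 in NOCT lines 4, 11 and 12.

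The B-lineage genes that EBF1 is known for mostly had few or no reads. Of 23 such genes 7 were tested, 0 passed in edgeR, and 0 of the 5 with an adjusted p in DESeq2 passed. Over all genes, 0.0579% and 3.41% passed. An unadjusted p under 0.05 in edgeR was reached by 0 of the 7, where 13.9% of all genes had such a p. The list holds 14 genes with under 10 counts in every line, of which VPREB1 and BLK, a part of the pre-B-cell receptor and a B-cell kinase, had 0 counts throughout. PAX5, the partner of EBF1 in B-cell commitment, had 14, 21 and 6 counts in GST lines 2, 8 and 9 and 23, 23 and 13 in NOCT lines 4, 11 and 12 (log2 fold change 0.36, edgeR adjusted p 0.754). The B-lineage genes with higher levels were ones that other cells also use, such as LEF1 at 43.6 ± 3.16 and 36.0 ± 4.51 CPM (SD, 3 lines a group; log2 fold change -0.28, edgeR adjusted p 0.366) and FOXO1 at -0.13 (0.797). IKZF1, a lymphoid zinc finger factor, had 35 to 62 counts in 5 lines and 2 in NOCT line 12.

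Of 13 adipocyte and thermogenic genes 9 were tested, 0 passed in edgeR and 1 in DESeq2 as lower (1.59% over all genes), and the median log2 fold change was -0.09. That gene was PRDM16, the brown fat co-regulator that acts downstream of EBF2. It had 10.4, 7.23 and 9.18 CPM in GST lines 2, 8 and 9 and 2.16, 3.54 and 4.31 CPM in NOCT lines 4, 11 and 12, and all NOCT lines lay below the GST lines (log2 fold change -1.43, standard error 0.29, edgeR adjusted p 0.120, DESeq2 adjusted p 0.00037). In NOCT line 12, PRDM16 lay below the GST lines and EBF2 above them. A relation between the levels of EBF2 and PRDM16 was not tested. PPARG, the master regulator of fat cell formation, had 15.6 ± 5.38 and 16.1 ± 3.43 CPM (SD, 3 lines a group; log2 fold change 0.05, edgeR adjusted p 0.944), and UCP1 had 1 to 9 counts in a line.

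Of 22 neuronal and olfactory genes 10 were tested, 0 passed in edgeR and 2 of the 6 with an adjusted p in DESeq2 passed, both lower (1.59% over all genes), with a median log2 fold change of -0.37. GNAL, the G-protein subunit of the olfactory cascade, had 79.1, 73.2 and 81.1 CPM in GST lines 2, 8 and 9 and 25.2, 32.8 and 53.2 CPM in NOCT lines 4, 11 and 12 (log2 fold change -1.07, edgeR adjusted p 0.157, DESeq2 adjusted p 0.0013). ADCY3, the adenylyl cyclase of the same cascade, had 78.2 ± 4.51 and 56.4 ± 10.8 CPM (SD, 3 lines a group; log2 fold change -0.47, edgeR adjusted p 0.223, DESeq2 adjusted p 0.0790). LHX2, a homeodomain factor of olfactory neurons and forebrain, had 8.75, 9.18 and 9.82 CPM in GST lines 2, 8 and 9 and 4.55, 5.42 and 6.02 CPM in NOCT lines 4, 11 and 12 (log2 fold change -0.80, edgeR adjusted p 0.158, DESeq2 adjusted p 0.0103). After removal of the neighbour level, the log2 fold change was -0.70 for GNAL (edgeR adjusted p 0.0555) and -0.46 for LHX2 (0.337). In GNAL, ADCY3 and LHX2 the NOCT lines lay below the GST lines, and line 4 was the lowest, as for EBF3. OMP, CNGA2 and STOML3, which mark mature olfactory neurons, had at most 4 counts in any line.

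Of 10 cell-cycle and survival genes reported to respond to EBF3, all were tested, 0 passed in edgeR and 1 in DESeq2 as higher (1.82% over all genes), with a median log2 fold change of 0.06. CDKN1B, the cyclin-dependent kinase inhibitor p27, had 58.2 ± 2.03 CPM in GST lines and 78.7 ± 7.68 CPM in NOCT lines (SD, 3 lines a group; log2 fold change 0.44, edgeR adjusted p 0.159, DESeq2 adjusted p 0.0256). CDKN1A, the inhibitor p21, had 64.5 ± 14.2 and 78.2 ± 42.4 CPM, and its highest value was in NOCT line 12 (SD, 3 lines a group; log2 fold change 0.28, edgeR adjusted p 0.753). The survival factor MCL1 stood at 0.28 (edgeR adjusted p 0.293).

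Of the 8 HEK293 markers 7 were tested, 0 passed in edgeR, and 1 was higher and 1 lower in DESeq2 (1.82% and 1.59% over all genes), with a median log2 fold change of 0.51. PAX2, a kidney transcription factor, had 108, 83 and 96 counts in GST lines 2, 8 and 9 and 19, 29 and 24 in NOCT lines 4, 11 and 12, or 4.75 ± 0.92 and 1.08 ± 0.30 CPM (SD, 3 lines a group; log2 fold change -2.13, edgeR adjusted p 0.0567, DESeq2 adjusted p 1.15e-06). KRT8, a keratin of simple epithelia, had 80.0, 90.5 and 86.8 CPM in GST lines 2, 8 and 9 and 252, 192 and 111 CPM in NOCT lines 4, 11 and 12 (log2 fold change 1.11, edgeR adjusted p 0.159, DESeq2 adjusted p 0.0012). The groups did not overlap for PAX2 (lower, as for 9.54% of all genes) or for KRT8 and KRT18 (higher, as for 10.5%), and KRT18, the partner keratin of KRT8, stood at 0.63 on the log2 scale (edgeR adjusted p 0.224, DESeq2 adjusted p 0.0588). The part of these differences in the level of EBF3 was not tested.

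Over the 8 lists together, 73 of 114 listed genes were tested, 0 passed in edgeR and 10 of the 66 with an adjusted p passed in DESeq2 (15.2%, 4 higher and 6 lower), where 3.41% of all genes did. At an unadjusted p under 0.05 in edgeR the share was 26.0%, where 13.9% of all genes had such a p. The lists were chosen with results of these data known and include the cell type markers. The shares are thus a description and no test of genes linked to EBF factors. Of those 10 genes, EP300, PRDM16 and PAX2 passed in DESeq2 with any 1 of the 6 lines left out. ZNF521, ID3, GNAL and KRT8 passed in 5 of the 6 refits and missed without GST line 9. RUNX1 and LHX2 passed in 2 and CDKN1B in 1. With NOCT line 12 left out, 15 listed genes passed in edgeR, among them ZNF521, ID2, ID3, RUNX1, GNAL, LHX2 and PRDM16, in a refit where 970 genes (5.42% of all tested) passed.

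**Figure D4:**
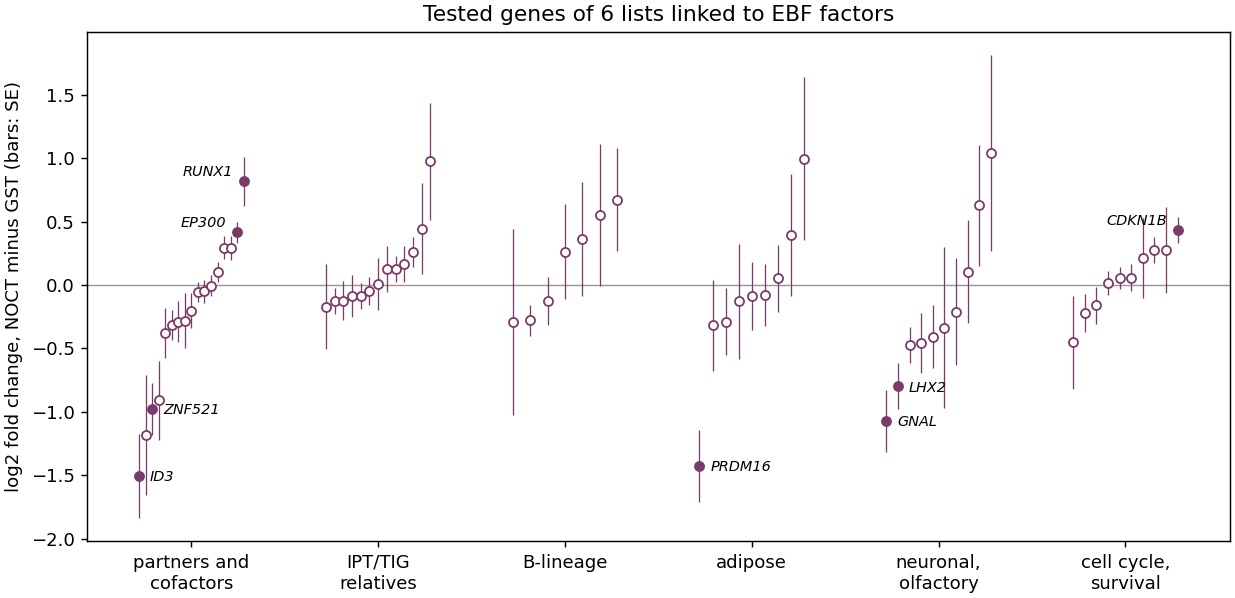
Log2 fold change, NOCT minus GST (vertical axis), of each tested gene in 6 lists of genes linked to EBF factors, ordered by value within a list; bars give the standard error, and filled, named points passed an adjusted p of 0.05 in DESeq2. The named points are ID3, ZNF521, EP300 and RUNX1 among the partners, PRDM16 among the adipose genes, GNAL and LHX2 among the neuronal genes and CDKN1B among the cell-cycle genes, and the IPT/TIG relatives and B-lineage genes have none.

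The genes whose levels were most like those of EBF3 were found by the Pearson correlation of log2(CPM + 0.5) over the 6 lines, among 14925 genes whose mean level was 1 CPM or more. All points come from the same 6 libraries and 2 groups, so a gene that separates the groups scores high, and 399 genes had a correlation above 0.9 and 441 below -0.9. The highest was FRRS1L (0.995), a brain protein that helps assemble AMPA receptors, with 9.23, 6.91 and 5.89 CPM in GST lines 2, 8 and 9 and 0.0785, 0.538 and 0.752 CPM in NOCT lines 4, 11 and 12 (2, 12 and 15 counts). Its difference between the groups was larger than that of EBF3, with -4.04 as its log2 fold change (edgeR adjusted p 0.0563, DESeq2 adjusted p 1.72e-13).

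CADPS2, a factor of dense-core vesicle release, followed at 0.993, then MXI1, an antagonist of MYC, at 0.992, VPS37D, a subunit of the ESCRT-I complex, at 0.990, CTBP2, a transcriptional co-repressor, at 0.990, and LHX2 at 0.989. Of these, VPS37D had the fold change nearest to that of EBF3, with 3.51 ± 0.36 and 1.40 ± 0.35 CPM (SD, 3 lines a group; log2 fold change -1.33). MXI1 and CTBP2 lie on chromosome 10, as EBF3 does, and had log2 fold changes of -0.37 and -0.32. CTBP2 is among the 69 neighbours of EBF3 whose median differed by -0.07 between the groups, while MXI1 lies outside that stretch.

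The most opposite patterns were those of CREG1 (-0.998), a secreted glycoprotein, ENAH (-0.997), a regulator of actin filaments, PPIC (-0.996), a cyclophilin, and SYF2 (-0.991), a splicing factor. ENAH had 366, 370 and 367 CPM in GST lines 2, 8 and 9 and 613, 571 and 527 CPM in NOCT lines 4, 11 and 12, highest in the line where EBF3 was lowest (log2 fold change 0.63, edgeR adjusted p 0.0567, DESeq2 adjusted p 1.05e-06). CREG1 and SYF2 differed by less, at 0.35 and 0.26.

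**Figure D5:**
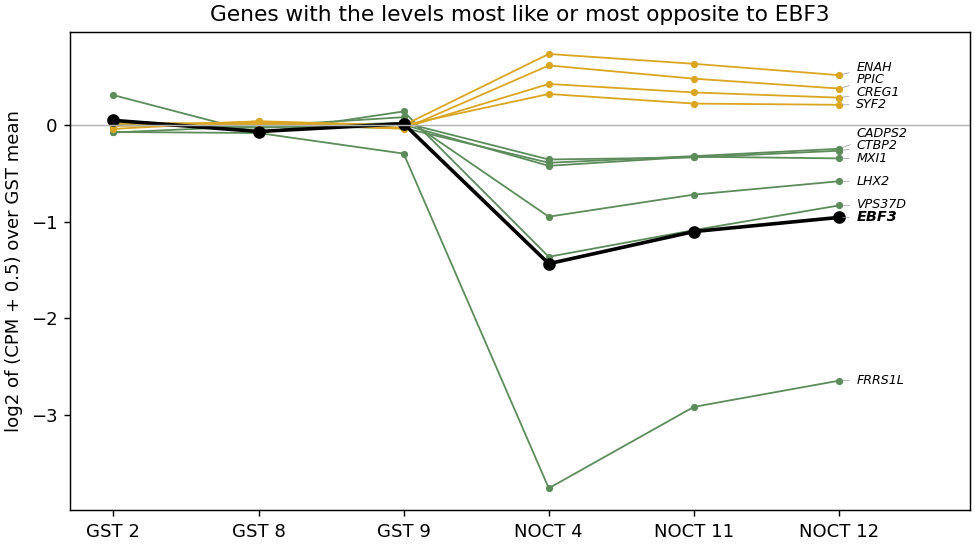
Level of EBF3 (black), of the 6 genes with the highest correlation to it (green) and of the 4 with the lowest (yellow), as log2 of CPM + 0.5 relative to the mean of the GST lines (vertical axis), by line. The genes were picked for this pattern: among NOCT lines, EBF3 is lowest in line 4 and highest in line 12, and FRRS1L spans the widest range.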

How the data were processed

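RNA was measured in 3 GST and 3 NOCT clonal HEK293 lines. The authors deposited counts of whole reads per gene for each line. They also deposited a table of TPM values, and a comparison that holds shrunken log2 fold changes, p-values, a mean normalised signal over all lines and a test score, which was not used. The submitters' processing notes name cutadapt 1.8.1, Trimmomatic 0.33, STAR 2.5.2b, HTSeq 0.6.1p1, DESeq2 1.16.1 and the build GRCh38, without roles. Coordinates and transcripts came from GENCODE release 29 on GRCh38. The direction of the deposited fold changes was read from the construct rows.

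Counts of 58395 genes were fitted with edgeR 4.0.16 in R 4.3.3 (filterByExpr, TMM factors, quasi-likelihood test, Benjamini-Hochberg adjustment over 17261 genes, threshold 0.05), after the code was tested on simulated data. Rows that name no gene (26.5% to 30.6% of a file without a feature, 2.02% to 2.41% ambiguous and 13.3% to 14.6% not unique) were left out, as were the spike-in and construct rows. CPM are TMM-scaled counts. A fold change's standard error was computed from its quasi-likelihood F statistic. Precision is set by 3 lines a group and, for EBF1, by 39 to 116 counts. The p-values set the difference between groups against the spread between libraries of different clonal lines. Clone, culture and library preparation cannot be told apart in that spread, and the labels give no batch.

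The members and gene lists were chosen with earlier results of these data known. Named genes are the members, list genes that passed the threshold or otherwise up to 3 with the smallest p and those with a defining role, tested neighbours within 1 Mb with a mean of at least 1 CPM (not all of the 6 nearest are printed), and the 6 genes most and 4 least correlated with EBF3. NEFM, C10orf143, KRT18, IKZF1, FOXO1, ADCY3, UCP1, OMP, CNGA2 and STOML3 were named after their values were seen. Alternatives were DESeq2 1.42.0, median-ratio and spike-in scaling, other filters, limma 3.58.1 on log2(TPM + 1) or on log2(TPM + 0.1), and the omission of each line in turn. Removing the level of neighbouring genes, and DESeq2 without each line, were chosen after seeing the data.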

Additional observations from a re-analysis of the deposited data

How the results depend on the processing

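EBF3 had a log2 fold change of -1.30 to -1.02 over 14 alternatives, each below 0. EBF1 ranged from -0.85 to -0.30 with a line left out and EBF2 from -1.14 to -0.14. EBF2 moved by more than the spread within groups in 1 case, to -1.14 without NOCT line 12. EBF4 ranged from -0.28 to 0.06 with a line left out and was 0.04 with spike-in totals, which put the median of all genes at 0.15. The 10 genes called over the whole table in edgeR became 508 with DESeq2, 22 with spike-in totals, 888 with no filter, 35 with the level of neighbouring genes removed, and 0 to 970 with a line left out (0 without GST line 9, 970 without NOCT line 12). With DESeq2 and a line left out, 555, 242 and 141 genes were called without GST lines 2, 8 and 9, and 250, 372 and 1684 without NOCT lines 4, 11 and 12. Of the listed genes, 0 passed in edgeR, 10 with DESeq2, 13 with no filter, 1 (PAX2, adjusted p 0.0486) with the neighbour level removed, and 0 to 15 with a line left out. With DESeq2, 9, 8 and 3 listed genes passed without GST lines 2, 8 and 9, and 7, 7 and 20 without NOCT lines 4, 11 and 12. Of the neighbours within 1 Mb, 0 passed, 2 with no filter and 0 to 4 with a line left out. The cause of these changes was not tested. No paired analysis was possible because the labels give no pairing of GST with NOCT lines. EBF1, with 39 to 116 counts, is the member whose value depth limits most.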

Other observations

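For some genes linked to EBF factors, NOCT line 12 had the lowest or the highest count of the 6 lines. CCND1, the cyclin of the early cell cycle, had 810, 1062 and 1066 counts across GST lines 2, 8 and 9, 967 and 1169 for NOCT lines 4 and 11, but 301 for line 12. GAP43, a growth cone protein, had 9 to 14 counts across the GST lines, 33 and 50 for NOCT lines 4 and 11, but 2 for line 12. RELN, the secreted guidance protein, had 21 to 39 counts in 5 lines and 3 in NOCT line 12. IKZF3, a lymphoid zinc finger factor, had 53 to 102 counts in 5 lines and 175 in NOCT line 12. These genes were chosen after their values were seen.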
